A study of Mus musculus with 2 samples.

Results

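The lysosome and vacuolar ATPase genes were followed in splenic regulatory T cells (Tregs) sorted by the signal of a reporter for PPARg. They comprised the 25 genes whose symbols start with Atp6v or Atp6ap, which encode the vacuolar proton pump and its accessory proteins, and 22 listed genes of lysosomal enzymes, membrane proteins and their regulator. These 47 genes were among 28692 in the deposited tables, and 39 of them (18 of the pump genes and 21 of the listed genes) had 30 or more UMIs (counted RNA molecules) summed over both libraries and were taken as measured. Tregs, the Foxp3-dependent CD4 T cells that hold immune responses in check, came from spleens of male B6 Pparg-Tdt.Foxp3-Gfp mice, 8 weeks of age, a strain with red and green fluorescent reporters, pooled from 2 or 3 animals before sorting and droplet encapsulation with 3′ v2 chemistry. PPARg, a nuclear receptor of lipid metabolism, is known for its part in Tregs of nonlymphoid tissue. The PPARg-low library held Tregs labelled as low in PPARg, and the PPARg-negative library held Tregs labelled as negative; all of them carried both reporters and no treatment was recorded. Each group was 1 library, so every comparison is between these libraries, no p-value could be given, and the intervals cover counting error only.

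Lysosomes are acidic organelles in which proteins, lipids and sugars are taken apart. The vacuolar ATPase (V-ATPase) acidifies them: its V1 sector lies in the cytosol and splits ATP, and its V0 sector lies in the membrane and carries protons inward. Cathepsins are the main lysosomal proteases, and many are made as inactive precursors that mature in the acid interior. The transcription factor TFEB is known to switch on many lysosome genes together by binding a short palindromic DNA element in their promoters, the CLEAR element, whose centre reads CACGTG.

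That element was looked for in the promoter windows of RefSeq (GRCm38.p6), which run from 250 bases before to 50 bases after each annotated transcription start. Of the 47 genes, some had no window in the promoter table and were not searched, Ctsh, Ctsb, Atp6v0a2 and Atp6v0d2 among them. The other 38 were in the table. CACGTG, which reads the same on both strands, was in a window of 10 of them (26.3%), against 8.09% of all 27025 genes in the table. The longer palindrome TCACGTGA, which contains CACGTG, was in a window of 5 of them (13.2%), against 1.12% of all genes. These 5 windows are shown because they carry the longer element, which is in capitals. They lie at chr2:164833523-164833822 on the plus strand for Ctsa, at chr7:142387778-142388077 on the minus strand for Ctsd, at chr16:44139210-44139509 on the minus strand for Atp6v1a, at chr8:105566015-105566314 on the minus strand for Atp6v0d1, and at chr17:26676146-26676445 on the plus strand for Atp6v0e.
Ctsa: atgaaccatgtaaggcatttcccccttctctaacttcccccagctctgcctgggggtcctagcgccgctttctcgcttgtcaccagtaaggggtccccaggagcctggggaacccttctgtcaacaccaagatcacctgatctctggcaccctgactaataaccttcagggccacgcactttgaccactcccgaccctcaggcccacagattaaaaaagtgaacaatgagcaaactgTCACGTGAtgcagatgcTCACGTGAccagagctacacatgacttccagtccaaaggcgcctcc
Ctsd: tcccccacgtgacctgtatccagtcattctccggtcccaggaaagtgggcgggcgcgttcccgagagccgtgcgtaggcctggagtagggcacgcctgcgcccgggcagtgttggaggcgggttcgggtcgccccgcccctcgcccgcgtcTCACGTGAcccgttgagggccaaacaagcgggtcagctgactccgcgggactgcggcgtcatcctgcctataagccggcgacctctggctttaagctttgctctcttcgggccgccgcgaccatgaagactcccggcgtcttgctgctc
Atp6v1a: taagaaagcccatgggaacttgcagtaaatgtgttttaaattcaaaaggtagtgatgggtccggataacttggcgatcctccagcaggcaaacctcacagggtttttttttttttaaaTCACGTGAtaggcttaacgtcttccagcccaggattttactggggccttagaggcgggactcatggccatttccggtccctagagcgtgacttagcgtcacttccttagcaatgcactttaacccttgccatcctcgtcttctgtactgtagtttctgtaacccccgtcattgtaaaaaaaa
Atp6v0d1: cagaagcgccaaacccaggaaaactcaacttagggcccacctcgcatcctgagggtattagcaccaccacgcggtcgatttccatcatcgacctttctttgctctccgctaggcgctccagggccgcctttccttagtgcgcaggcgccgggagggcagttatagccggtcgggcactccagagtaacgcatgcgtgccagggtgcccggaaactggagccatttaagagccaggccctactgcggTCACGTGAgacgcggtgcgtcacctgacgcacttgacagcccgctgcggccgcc
Atp6v0e: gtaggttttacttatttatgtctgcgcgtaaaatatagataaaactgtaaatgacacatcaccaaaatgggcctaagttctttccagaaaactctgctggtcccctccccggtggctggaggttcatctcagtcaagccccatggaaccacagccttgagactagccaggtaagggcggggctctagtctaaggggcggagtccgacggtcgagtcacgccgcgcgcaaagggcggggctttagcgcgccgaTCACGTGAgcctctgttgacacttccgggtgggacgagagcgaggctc
Ctsa had 2 copies, the first starting 13 bases before the annotated start. The element started 99 bases before the start in Ctsd, 132 bases before it in Atp6v1a and 4 bases before it in Atp6v0d1, and just after it in Atp6v0e. A match is a description of the letters and does not show that a factor binds there. The window of Lamp1 held 4 copies of CACGTG and no TCACGTGA.

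The PPARg-low library kept 1619 cells with 2901710 UMIs, against 2633 cells with 5897260 UMIs in the PPARg-negative library. The median was 1517 UMIs a cell in PPARg-low cells and 2171 in PPARg-negative cells. The libraries also differed in cell state: 951 PPARg-low cells (58.7%) had under 20% of their UMIs in ribosomal protein genes, against 614 PPARg-negative cells (23.3%). These ribosome-poor cells had a median of 978 UMIs in the PPARg-low library and 853 in the PPARg-negative library, and a median mitochondrial share of 6.80% and 6.92%; ribosome-rich cells had 2294 and 2455 UMIs and 2.74% and 2.29%. The defining markers of the sorted type were present: T cell genes (Cd3e, Cd3d, Cd3g and Cd4) were found in 1609 PPARg-low and 2597 PPARg-negative cells, and Treg genes (Ikzf2, Tnfrsf18, Ctla4, Il2ra and Foxp3) in 1603 and 2365. Foxp3 itself had 100 and 146 UMIs, and most of the Treg list's UMIs were of Ikzf2, Tnfrsf18 and Ctla4. Of the myeloid markers, whose cells are rich in lysosomes, 86 UMIs (29.6 CPM) were in PPARg-low cells and 21 (3.56 CPM) in PPARg-negative cells, with 1 and 6 of 11 genes at 0. Dendritic markers had 7 and 4 UMIs, B cell markers 121 and 199, erythroid markers 38 and 11, natural killer markers 11 and 7 and CD8 markers 90 and 163, and the neutrophil markers were at 0 in both libraries. The myeloid-marked cells (2 or more such UMIs) numbered 16 and 2, and held 1.70% of the listed genes' UMIs in the PPARg-low library and 0.111% in the PPARg-negative library. Myeloid, dendritic, B cell, neutrophil and erythroid markers together reached 2 or more UMIs in 39 PPARg-low and 20 PPARg-negative cells, a count that leaves out natural killer and CD8 markers. Without those cells, 20 of the 39 genes were called higher and 0 lower by the rule given below. Of all measured genes, 24.6% were called higher and 4.39% lower in that setting. The libraries shared 5 barcodes.

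Lysosome genes were higher in PPARg-low Tregs when all cells were summed. Counts are given per 1000000 UMIs of the library (CPM), a level that compares libraries for a gene and not genes with each other, and a gene was called higher or lower where the PPARg-low over PPARg-negative ratio was 1.5 or more, or its inverse, with the 95% counting interval on the same side of 1. All 39 measured genes together had 5912 CPM (17154 UMIs) in PPARg-low cells and 3910 CPM (23058 UMIs) in PPARg-negative cells. Of them, 19 (48.7%) were called higher and 0 lower, where 24.4% of all 9394 measured genes were called higher and 4.42% lower. The listed genes had a median log2 ratio of 0.74 with 12 of 21 called higher, and the V-ATPase genes one of 0.48 with 7 of 18 called higher. The median of all measured genes was itself 0.29, so the typical gene had a ratio of 1.22. With the libraries scaled to that median, 14 genes were called higher and 3 lower, where 12.1% and 8.77% of all genes were. At a stricter ratio of 2, 10 were called higher, where 11% of all genes were, and 0 lower, where 2.22% were.

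**Figure D1:**
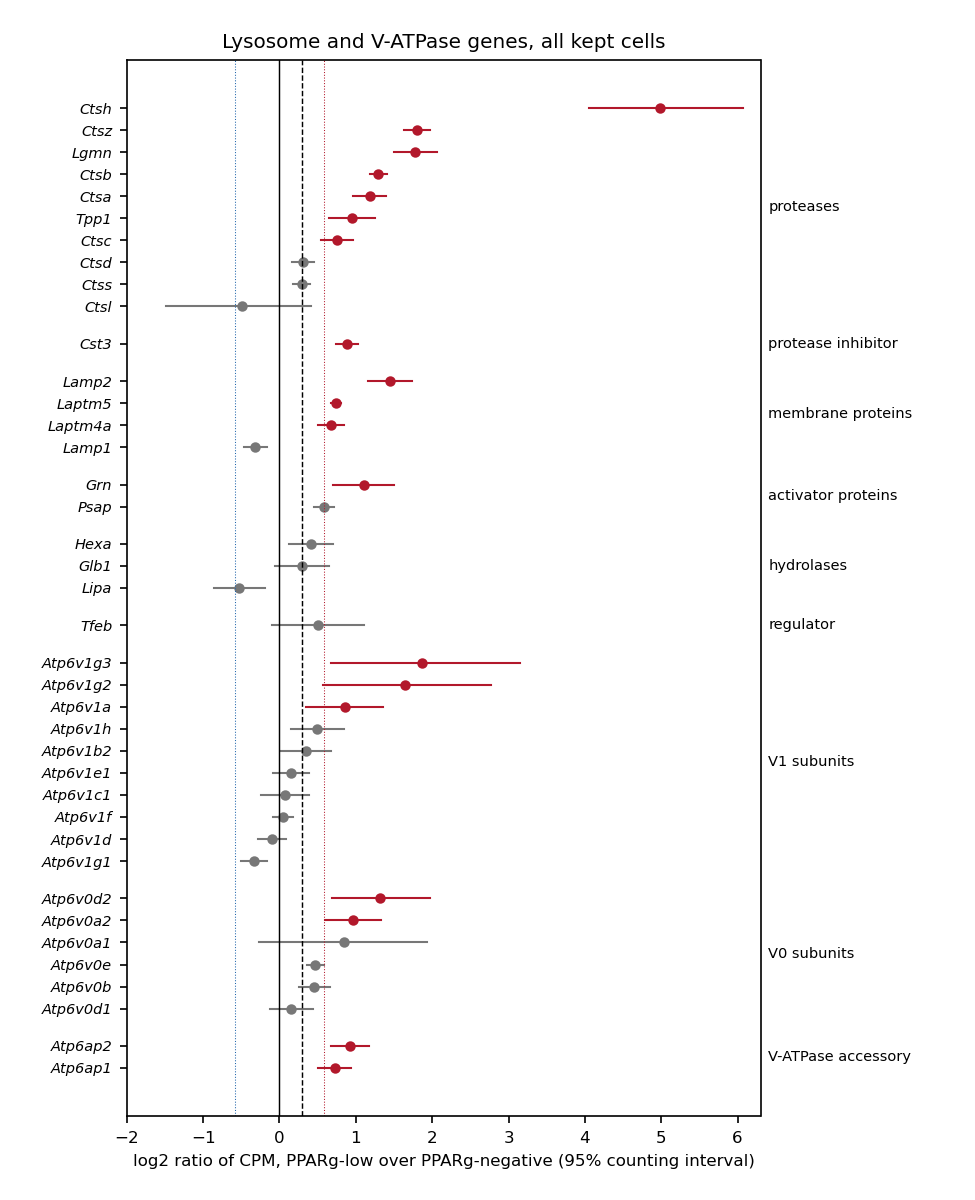
Log2 ratio of CPM, PPARg-low over PPARg-negative, for the 39 measured genes by role, with 95% counting intervals; red marks genes called higher, the dashed line is the median of all measured genes (0.29) and the dotted lines mark a ratio of 1.5 in either direction. Ctsh stands farthest to the right, most proteases lie past the dotted line, and most V1 subunits lie near the solid line of equal level.

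The proteases differed the most between the libraries. Ctsh encodes cathepsin H, an aminopeptidase (chr9:90054152-90076089 in mm10). It had 155 UMIs, or 53.4 CPM (95% Poisson interval 45.3 to 62.5), in PPARg-low cells and 10 UMIs, or 1.70 CPM (0.813 to 3.12), in PPARg-negative cells, a ratio of 31.5 (16.7 to 67.0). It was nearly undetected in the PPARg-negative library, and no other member came close to this ratio. Ctsz, cathepsin Z, a carboxypeptidase (chr2:174427493-174439039), had 754 UMIs and 260 CPM (242 to 279) in PPARg-low cells and 440 UMIs and 74.6 CPM (67.8 to 81.9) in PPARg-negative cells, a ratio of 3.48 (3.09 to 3.93). Lgmn, legumain, which cuts after asparagine and matures other cathepsins (chr12:102394084-102439813), had 279 UMIs and 96.2 CPM in PPARg-low cells and 165 UMIs and 28.0 CPM in PPARg-negative cells, a ratio of 3.44 (2.82 to 4.19). The most abundant protease called higher was Ctsb, cathepsin B (chr14:63122462-63145923), with 1426 UMIs and 491 CPM (466 to 518) in PPARg-low cells and 1184 UMIs and 201 CPM (190 to 213) in PPARg-negative cells, a ratio of 2.45 (2.26 to 2.65). These 4 genes, like the other members called higher, were higher by more than the typical gene at both ends of their intervals.

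The other 3 proteases called higher had smaller ratios. Ctsa, the carboxypeptidase that also protects other lysosomal enzymes, had 382 UMIs and 132 CPM in PPARg-low cells and 342 UMIs and 58.0 CPM in PPARg-negative cells (ratio 2.27, 1.96 to 2.63). Tpp1, a tripeptidyl peptidase, had 176 UMIs and 60.7 CPM against 185 UMIs and 31.4 CPM in PPARg-negative cells (1.93, 1.56 to 2.39). Ctsc, cathepsin C, which activates granule proteases, had 343 UMIs and 118 CPM in PPARg-low cells and 414 UMIs and 70.2 CPM in PPARg-negative cells (1.68, 1.46 to 1.95). The uncalled proteases were Ctss, Ctsd and Ctsl. Ctss, the cathepsin known for antigen processing, had 1089 UMIs and 375 CPM in PPARg-low cells and 1807 UMIs and 306 CPM in PPARg-negative cells, a ratio of 1.22 (1.14 to 1.32), close to that of the typical gene. The ratio was 1.24 for Ctsd, an aspartic protease, and 0.711 (0.357 to 1.34) for Ctsl, which was sparse at 14 and 40 UMIs. Summed over the 10 proteases, the level was 1807 CPM in PPARg-low cells and 951 CPM in PPARg-negative cells, a ratio of 1.90 (1.83 to 1.97). Cst3, the secreted inhibitor cystatin C that blocks cysteine cathepsins, was also called higher, with 777 UMIs and 268 CPM in PPARg-low cells and 857 UMIs and 145 CPM in PPARg-negative cells (1.84, 1.67 to 2.03). Protease genes and a gene of their inhibitor were thus both higher in the pooled PPARg-low cells.

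Among the membrane proteins, the 2 LAMP genes went different ways. Lamp2, which also serves chaperone-mediated autophagy (chrX:38401357-38456454), had 233 UMIs and 80.3 CPM (70.3 to 91.3) in PPARg-low cells and 174 UMIs and 29.5 CPM (25.3 to 34.2) in PPARg-negative cells, a ratio of 2.72 (2.23 to 3.33). Lamp1, its closest relative and a main protein of the lysosomal membrane (chr8:13159161-13175338), had 490 UMIs and 169 CPM (154 to 185) in PPARg-low cells and 1239 UMIs and 210 CPM (199 to 222) in PPARg-negative cells, a ratio of 0.804 (0.722 to 0.893). Lamp1 thus lay below 1 within its interval, although it did not reach the size of a call, while Lamp2 was called higher. Laptm5, a lysosomal protein of blood cells and the most counted of all members, had 3955 UMIs and 1363 CPM in PPARg-low cells and 4814 UMIs and 816 CPM in PPARg-negative cells (1.67, 1.60 to 1.74). Laptm4a, another small lysosomal membrane protein, had 507 UMIs and 175 CPM in PPARg-low cells and 647 UMIs and 110 CPM in PPARg-negative cells (1.59, 1.41 to 1.79).

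Of the activator proteins, Grn, which encodes progranulin, had 110 UMIs and 37.9 CPM in PPARg-low cells and 104 UMIs and 17.6 CPM in PPARg-negative cells, a ratio of 2.15 (1.63 to 2.84). Psap, the precursor of the saposins that present lipids to hydrolases, had 817 UMIs and 282 CPM in PPARg-low cells and 1109 UMIs and 188 CPM in PPARg-negative cells, and its ratio of 1.497 (1.37 to 1.64) lay just under the size of a call. The 3 hydrolases were not called. Hexa, a subunit of beta-hexosaminidase, had 167 UMIs and 57.6 CPM in PPARg-low cells and 255 UMIs and 43.2 CPM in PPARg-negative cells (1.33, 1.09 to 1.62). Glb1, beta-galactosidase, had a ratio of 1.23 (0.961 to 1.57). Lipa, the acid lipase that frees cholesterol and fatty acids, went below 1, with 102 UMIs and 35.2 CPM (28.7 to 42.7) in PPARg-low cells and 298 UMIs and 50.5 CPM (45.0 to 56.6) in PPARg-negative cells (0.696, 0.550 to 0.874), short of a call by its size. The hydrolases summed to a ratio of 1.05 (0.923 to 1.19), unlike the proteases. Tfeb had 42 UMIs and 14.5 CPM in PPARg-low cells and 60 UMIs and 10.2 CPM in PPARg-negative cells (1.42, 0.936 to 2.15), an interval that includes 1. Of the 5 genes with TCACGTGA in the windows printed above, Ctsa (2.27) and Atp6v1a (1.81) were called higher, while Atp6v0e (1.38), Ctsd (1.24) and Atp6v0d1 (1.11) were not.

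The V-ATPase sectors differed in their pooled sums. The membrane sector summed to 626 CPM (597 to 655) in PPARg-low cells and 448 CPM (431 to 466) in PPARg-negative cells, a ratio of 1.40 (1.31 to 1.48), while the cytosolic sector summed to 766 CPM (734 to 798) and 748 CPM (727 to 771), a ratio of 1.02 (0.972 to 1.08). Within each kind of cell defined above the sectors overlapped, with V0 at 1.26 (1.16 to 1.36) and V1 at 1.12 (1.05 to 1.19) in ribosome-rich cells, and V0 at 1.03 (0.925 to 1.15) and V1 at 0.966 (0.857 to 1.09) in ribosome-poor cells. The accessory genes Atp6ap1 and Atp6ap2, which help assemble the pump, were both called higher. Atp6ap2, also known as the prorenin receptor, had 254 UMIs and 87.5 CPM in PPARg-low cells and 272 UMIs and 46.1 CPM in PPARg-negative cells (1.90, 1.59 to 2.26). Atp6ap1 had 310 UMIs and 107 CPM in PPARg-low cells and 382 UMIs and 64.8 CPM in PPARg-negative cells (1.65, 1.42 to 1.92).

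In the V1 sector, 3 of 10 measured subunits were called higher, not far from the 24.4% of all genes. Atp6v1a, the catalytic A subunit, had 64 UMIs and 22.1 CPM in PPARg-low cells and 72 UMIs and 12.2 CPM in PPARg-negative cells (1.81, 1.27 to 2.57). The other two were sparse isoforms of the G subunit: Atp6v1g2 had 20 UMIs in PPARg-low cells and 13 in PPARg-negative cells (6.89 and 2.20 CPM, ratio 3.13, 1.48 to 6.84), and Atp6v1g3 had 18 and 10 UMIs (6.20 and 1.70 CPM, ratio 3.66, 1.60 to 8.87). The common G isoform, Atp6v1g1, went the other way, with 377 UMIs and 130 CPM in PPARg-low cells and 965 UMIs and 164 CPM in PPARg-negative cells (0.794, 0.703 to 0.895), not a call by its size. The most abundant subunit gene of V1, Atp6v1f, had 769 UMIs and 265 CPM in PPARg-low cells and 1511 UMIs and 256 CPM in PPARg-negative cells (1.03, 0.947 to 1.13). The remaining V1 genes had ratios between 0.933 for Atp6v1d and 1.41 for Atp6v1h.

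In the V0 sector, 2 of 6 measured subunits were called higher, on the same background of 24.4%. Atp6v0a2, an a subunit that anchors the pump and carries the proton path, had 123 UMIs and 42.4 CPM in PPARg-low cells and 128 UMIs and 21.7 CPM in PPARg-negative cells (1.95, 1.51 to 2.52). Atp6v0d2, an isoform of the d subunit best known from osteoclasts and macrophages (chr4:19876841-19922605), had 48 UMIs and 16.5 CPM in PPARg-low cells and 39 UMIs and 6.61 CPM in PPARg-negative cells (2.50, 1.61 to 3.92). The most abundant V0 gene, Atp6v0e, had 1116 UMIs and 385 CPM in PPARg-low cells and 1641 UMIs and 278 CPM in PPARg-negative cells, and its ratio of 1.38 (1.28 to 1.49) stayed under a call. Atp6v0b (1.37) and Atp6v0d1 (1.11) were likewise uncalled. Atp6v0a1 had 15 and 17 UMIs and an interval from 0.834 to 3.82.

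The isoform choices of the pump were alike in both libraries for most subunits. All UMIs of the V1 B, C and E subunits were of Atp6v1b2, Atp6v1c1 and Atp6v1e1, and their partners Atp6v1b1, Atp6v1c2 and Atp6v1e2 had 0 UMIs. Among the a subunits, Atp6v0a2 made up 60.0% of UMIs in PPARg-low cells and 59.5% in PPARg-negative cells, and Tcirg1, which encodes the a3 subunit, 32.7% and 32.6%. The d subunit differed: Atp6v0d2 gave 48 of 214 d subunit UMIs (22.4%, exact 95% interval 17.0 to 28.6) in PPARg-low cells and 39 of 342 (11.4%, 8.24 to 15.3) in PPARg-negative cells. This order held in ribosome-rich cells (25.0% and 7.64%) and was the opposite in ribosome-poor cells, with 12 of 70 (17.1%, 9.18 to 28.0) in the PPARg-low and 17 of 54 (31.5%, 19.5 to 45.6) in the PPARg-negative library, where the intervals overlap. The G subunit differed as well, with 90.8% (87.6 to 93.4) Atp6v1g1 in PPARg-low cells and 97.7% (96.5 to 98.5) in PPARg-negative cells. The unmeasured members were Atp6ap1l, Atp6v0a4, Atp6v1b1, Atp6v1c2 and Atp6v1e2 at 0 raw UMIs, Atp6v0e2 with 1, Cd63 with 2 and Atp6v0c with 25. Atp6v0c, the gene of the proton-carrying ring, lay just under the minimum, and the annotation holds 2 processed pseudogenes of it with which its reads could be shared; Atp6v1g3 lay just inside with 30.

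The ratios between the libraries were larger in ribosome-rich than in ribosome-poor cells. In ribosome-rich cells, 12 of 39 genes were called higher and 1 lower, where 17.6% of all genes were called higher and 3.69% lower. In ribosome-poor cells, 2 were called higher and 3 lower, where 5.62% and 4.82% of all genes were. The 2 were Ctsh, with 97 UMIs and 84.0 CPM in PPARg-low cells and 6 UMIs and 9.14 CPM in PPARg-negative cells (ratio 9.19, 4.07 to 25.7), and Ctsz, with 398 and 210 CPM (1.89, 1.56 to 2.31). The median log2 ratio of the listed genes was 0.47 in the ribosome-rich and 0.04 in the ribosome-poor kind, and that of the V-ATPase genes 0.29 and 0.02, against 0.24 and 0.02 for all genes. Of the 19 genes called higher in all cells, 11 were called higher in ribosome-rich cells, and 18 had a smaller ratio in ribosome-poor than in all cells. The part of the ribosome-poor share in the pooled ratios was not tested beyond these values.

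**Figure D2:**
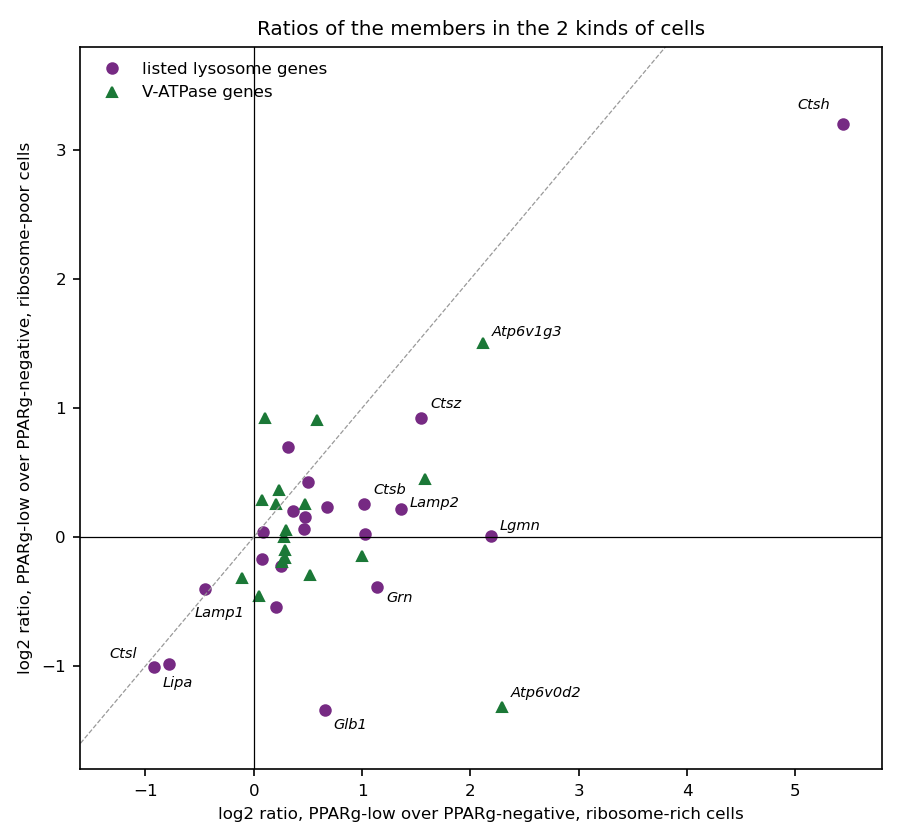
Log2 ratio of CPM, PPARg-low over PPARg-negative, of each measured gene in ribosome-rich cells (horizontal) and in ribosome-poor cells (vertical), with the line of equal ratios dashed; circles are listed lysosome genes and triangles V-ATPase genes. Most points lie right of the vertical line and close to the horizontal line, Ctsh and Ctsz are high on both axes, and Atp6v0d2 and Glb1 are at the lower right.

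Within either library, ribosome-poor cells had more of the lysosome transcripts per UMI. The listed genes summed to 6383 CPM in ribosome-poor and 2966 CPM in ribosome-rich PPARg-low cells, a ratio of 2.15 (2.08 to 2.23), and to 6058 and 2170 CPM in PPARg-negative cells, a ratio of 2.79 (2.69 to 2.89). By the same call rule, 18 of 21 listed genes were higher in ribosome-poor cells in each library, where 24.2% of all genes were in the PPARg-low and 35.4% in the PPARg-negative library; 0 were lower, where 6.78% and 5.72% of all genes were. The V-ATPase sectors parted here. V0 genes summed to 796 CPM in ribosome-poor and 513 CPM in ribosome-rich PPARg-low cells (1.55, 1.41 to 1.70), and to 771 and 408 CPM in PPARg-negative cells (1.89, 1.71 to 2.08). V1 genes summed to 640 and 849 CPM in PPARg-low cells (0.754, 0.690 to 0.824) and to 663 and 759 CPM in PPARg-negative cells (0.873, 0.789 to 0.964). The V1 sum was thus lower and the V0 sum higher in ribosome-poor cells of both libraries, but single subunits varied. Of the V1 genes, the PPARg-low library had 0 called higher and 3 lower, and the PPARg-negative library 2 higher and 2 lower; of the V0 genes, the PPARg-low library had 3 called higher and 1 (Atp6v0d2) lower, and the PPARg-negative library 4 higher and 0 lower. The accessory genes followed V0, at 2.80 (2.35 to 3.34) in PPARg-low and 3.34 (2.81 to 3.96) in PPARg-negative cells. Between the kinds, all genes had a median ratio of 1.25 (PPARg-low library) and 1.46 (PPARg-negative library), the shift beside which these values stand.

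**Figure D3:**
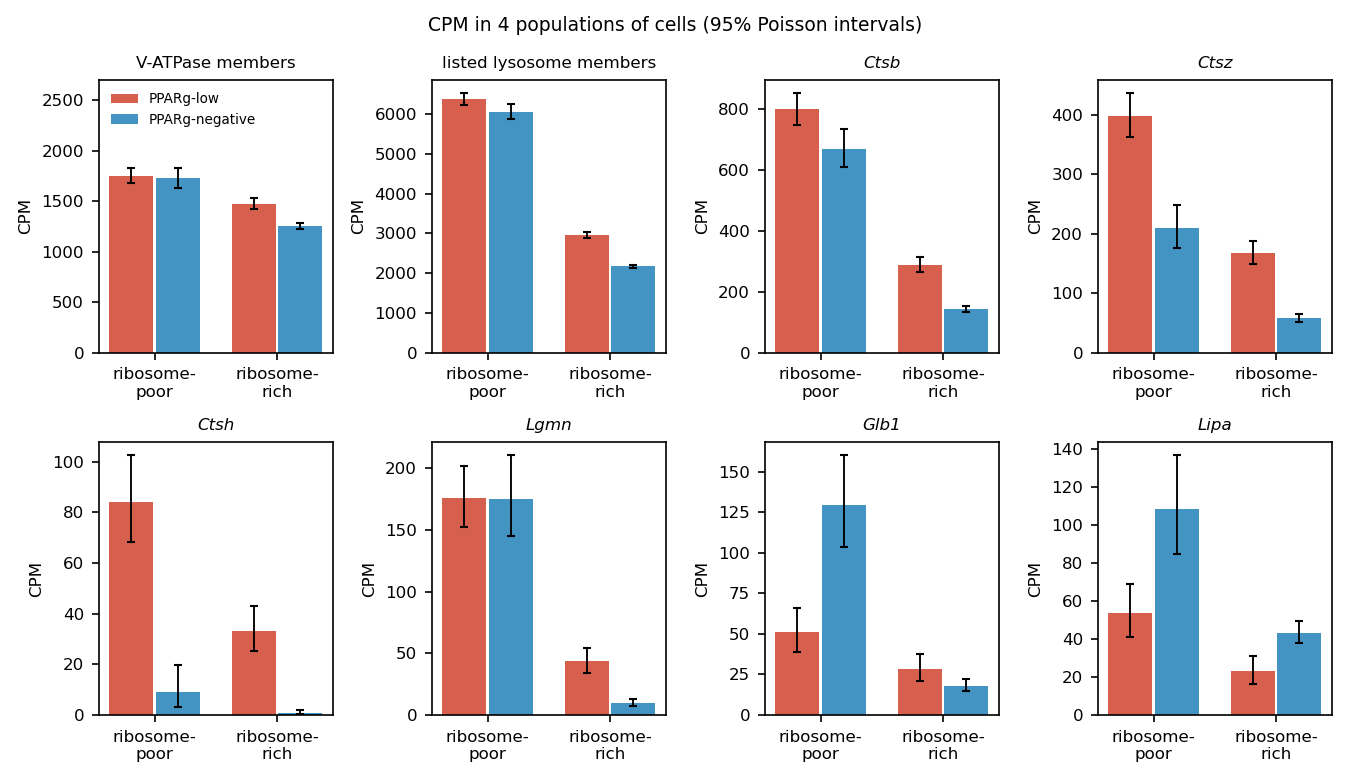
CPM with 95% Poisson intervals for ribosome-poor and ribosome-rich cells of the PPARg-low (red) and PPARg-negative (blue) libraries, for the V-ATPase sum, the sum of listed lysosome genes, and 6 genes. The listed sums of the ribosome-poor cells (6383 and 6058 CPM) exceed those of the ribosome-rich cells (2966 and 2170 CPM) in both libraries; Ctsz and Ctsh are higher in PPARg-low cells of both kinds, Lipa is lower in both, and Glb1 is lower in ribosome-poor PPARg-low cells only.

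Lgmn shows how the kinds of cells combined. In ribosome-poor cells its level was 176 CPM (152 to 202) in the PPARg-low library and 175 CPM (145 to 210) in the PPARg-negative library, a ratio of 1.003 (0.794 to 1.27). In ribosome-rich cells it was 43.5 CPM (34.3 to 54.4) and 9.54 CPM (7.08 to 12.6), a ratio of 4.56 (3.15 to 6.65). Ctsb behaved alike, with 2.03 (1.81 to 2.28) where ribosomal transcripts were rich and 1.19 (1.06 to 1.34) where they were poor, and Lamp2 with 2.56 (1.91 to 3.44) and 1.16 (0.868 to 1.56). Lipa, in contrast, was called lower in both kinds, with 22.9 CPM in PPARg-low and 43.3 CPM in PPARg-negative ribosome-rich cells (0.529, 0.368 to 0.742) and 53.7 and 108 CPM in ribosome-poor cells (0.496, 0.347 to 0.708). Its ratio over all cells, 0.696, lay nearer to 1 than in either kind. Glb1 and Atp6v0d2 were called higher in ribosome-rich and lower in ribosome-poor cells. Glb1 had 28.6 CPM in PPARg-low and 18.1 CPM in PPARg-negative ribosome-rich cells (1.58, 1.10 to 2.25), and 51.1 and 130 CPM in ribosome-poor cells (0.395, 0.278 to 0.556). Atp6v0d2 had 20.6 and 4.20 CPM (36 and 22 UMIs; 4.91, 2.81 to 8.76), and 10.4 and 25.9 CPM (12 and 17 UMIs; 0.401, 0.175 to 0.891).

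The shares of cells with a transcript were compared after each cell was thinned to 750 UMIs, which left 1381 PPARg-low and 2394 PPARg-negative cells. Of PPARg-low cells 30.7% (28.3 to 33.2) showed Ctsb, against 14.95% (13.6 to 16.4) of PPARg-negative cells; the same shares were 18.8% and 6.14% for Ctsz, 7.31% and 2.38% for Lgmn, and, for Ctsh, 4.63% (3.59 to 5.88) and 0.125% (0.02585 to 0.366). For genes that Tregs should lack, the thinned shares were 0.217% and 0.125% for the B cell gene Cd79a, 0.0724% and 0.0835% for the myeloid gene Lyz2, and 0.290% and 0% (0 of 2394 cells, with an exact upper bound of 0.154%) for the myeloid gene C1qa. Markers differ in this: without thinning, any of the 5 B cell markers was in 102 of 1619 PPARg-low and 142 of 2633 PPARg-negative cells, mostly Cd79b, with 92 and 132 UMIs. The Ctsh share of the PPARg-negative library was at the level of Cd79a, so this share alone was not read as expression. How much of it was free RNA was not tested, and the spread of these few UMIs over cells with and without Klrg1 is given below. Without thinning, the shares were 50.3% and 32.9% for Ctsb and 7.60% and 0.380% for Ctsh. Lamp1 was seen in 12.6% of thinned PPARg-low cells and 15.2% of PPARg-negative cells, with intervals that overlap. In ribosome-poor cells the shares of Ctsb were 42.3% and 39.6% and those of Lgmn 12.1% and 11.1%, with overlapping intervals, and those of Ctsz were 25.9% (22.8 to 29.3) and 15.5% (12.1 to 19.3). A thinned cell held on average 3.66 UMIs of the listed genes in the PPARg-low library and 2.22 in the PPARg-negative library, and 1.20 and 0.999 of the V-ATPase genes.

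Cells were then divided by Klrg1, a receptor found on differentiated Tregs, since it is no member. A Klrg1 UMI was found in 899 of 1619 PPARg-low cells and 141 of 2633 PPARg-negative cells. Ribosome-poor cells made up 62.1% of PPARg-low cells with Klrg1 and 54.6% of those without it; in the PPARg-negative library they made up 63.8% and 21.03%. In the PPARg-low library Ctsh had 77.95 CPM in cells with Klrg1 and 20.9 CPM in cells without (129 and 26 UMIs; 3.74, 2.44 to 5.94). The few PPARg-negative Ctsh UMIs were not evenly spread either, with 6 UMIs in cells with Klrg1 and 4 in cells without (20.7 and 0.713 CPM; 29.0, 6.88 to 140). Lgmn in PPARg-low cells had 137 CPM with Klrg1 and 42.5 CPM without (3.21, 2.37 to 4.42). The V-ATPase sum was alike in PPARg-low cells with and without Klrg1, with a ratio of 1.001 (0.944 to 1.06). Among PPARg-negative cells it was higher with Klrg1, at 1693 against 1288 CPM (1.31, 1.20 to 1.44). There it was 1.23 (1.07 to 1.42) within ribosome-rich cells and 1.08 (0.940 to 1.24) within ribosome-poor cells, where the interval includes 1. In the PPARg-negative library Lgmn had 238 CPM in cells with Klrg1 and 17.1 CPM in cells without (69 and 96 UMIs; 13.9, 10.0 to 19.1), and Grn 86.2 and 14.1 CPM (6.12, 3.74 to 9.70). Lgmn was higher in cells with Klrg1 within ribosome-poor cells as well, where its ratio was 2.46 (1.72 to 3.61) in the PPARg-low library and 3.49 (2.38 to 5.12) in the PPARg-negative library. For Ctsb that ratio was 1.27 (1.10 to 1.46) in PPARg-low and 0.877 (0.689 to 1.11) in PPARg-negative ribosome-poor cells, and for Grn 1.11 (0.674 to 1.88) and 1.48 (0.783 to 2.69), intervals that include 1. Within ribosome-rich cells Ctsb had 1.22 (1.02 to 1.47) in the PPARg-low and 1.94 (1.35 to 2.69) in the PPARg-negative library. Grn had 1.60 (0.776 to 3.43) and 7.23 (2.93 to 15.6) there, the latter from 8 and 41 UMIs. For Ctsh in PPARg-low cells the ratio was 2.37 (1.30 to 4.51) in the ribosome-rich and 4.94 (2.56 to 10.7) in the ribosome-poor kind.

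**Figure D4:**
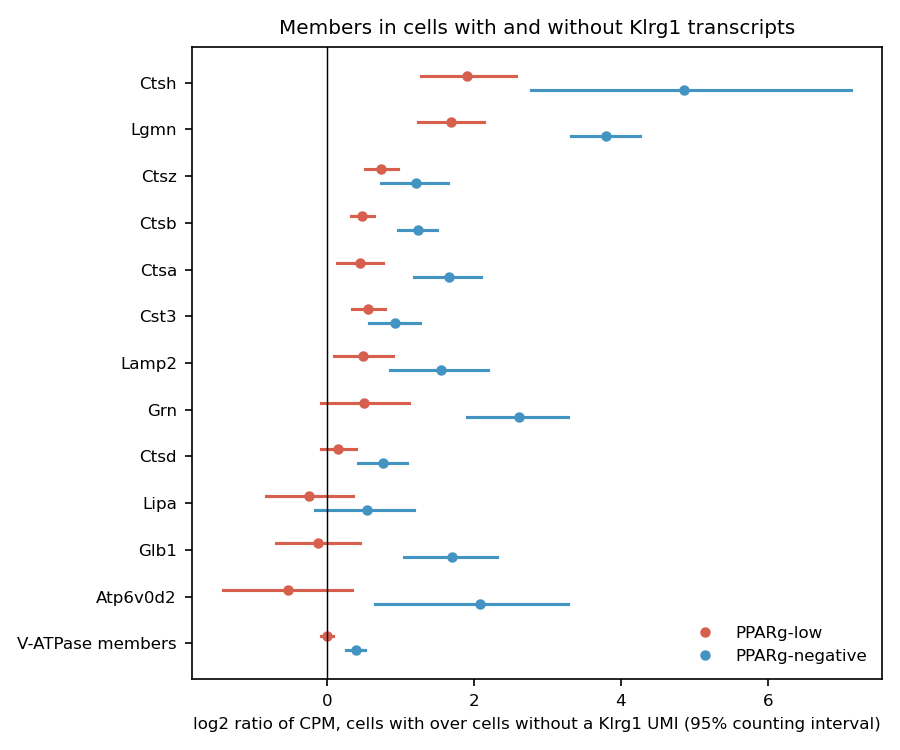
Log2 ratio of CPM in cells with over cells without a Klrg1 UMI, within the PPARg-low (red) and the PPARg-negative (blue) library, with 95% counting intervals. Lgmn and Ctsh are to the right in both libraries. The V-ATPase sum is at 0 in the PPARg-low library and to the right of 0 in the PPARg-negative library.

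Between the libraries, the listed sum over both kinds of cells was closer in cells with Klrg1 than in cells without it. Among Klrg1-positive cells the listed genes summed to 4780 CPM in the PPARg-low and 4565 CPM in the PPARg-negative library (1.05, 0.988 to 1.11), and among Klrg1-negative cells to 3723 and 2501 CPM (1.49, 1.44 to 1.54). Ribosome-poor cells were 62.1% and 63.8% of the cells with Klrg1 and 54.6% and 21.03% of those without. The part of these shares in the ratios of this gate was not tested. Within ribosome-rich cells the sums were 3195.7 and 3143.4 CPM with Klrg1, and 2712.4 and 2143.5 CPM without. Within ribosome-poor cells they were 6755.6 and 5850.3 CPM with Klrg1, and 5726.5 and 6120.7 CPM without. Ctsz was higher in PPARg-low cells on both sides of the gate, at 1.94 (1.44 to 2.67) with Klrg1 and 2.68 (2.27 to 3.16) without, as was Ctsh, at 3.77 (1.68 to 10.5) with 129 and 6 UMIs, and at 29.2 (10.1 to 115) with 26 and 4. Lgmn turned: it was lower in PPARg-low cells with Klrg1, at 137 against 238 CPM in PPARg-negative cells (0.574, 0.437 to 0.763), and higher without, at 42.5 against 17.1 CPM (2.48, 1.74 to 3.51). Grn and Glb1 turned in the same way, at 0.505 (0.316 to 0.831) and 0.404 (0.251 to 0.668) with Klrg1 and at 2.16 (1.43 to 3.22) and 1.43 (1.02 to 1.99) without. Lipa was farther from 1 with Klrg1, at 0.451 (0.268 to 0.786), than without, at 0.779 (0.561 to 1.06). The PPARg-negative cells with Klrg1 were few, and no difference between the gates was tested.

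Gates on other genes gave the listed genes a similar order. Cells with a UMI of Il10, Lag3 or Ccr8, genes of activated Tregs, had a listed sum 1.20-fold (1.16 to 1.24) that of other PPARg-low cells and 1.51-fold (1.40 to 1.61) that of other PPARg-negative cells. They were also more often ribosome-poor, at 67.0% against 55.6% of other cells in the PPARg-low library. In the PPARg-negative library these shares were 51.5% and 22.2%, and their part in the ratios was not tested. Cells with a UMI of Ccr7 or Satb1, genes of resting Tregs, had 0.767 times (0.707 to 0.830) the listed sum of other PPARg-low cells and 0.736 times (0.713 to 0.760) that of other PPARg-negative cells. For the V-ATPase sum the ratios were smaller in size, at 0.918 (0.810 to 1.04) and 0.899 (0.860 to 0.940). Among single genes in the PPARg-negative library, Ccr7 or Satb1 cells had 13.1 CPM of Lgmn against 44.7 CPM in other cells (0.294, 0.201 to 0.422) and 7.69 CPM of Grn against 28.8 CPM (0.267, 0.162 to 0.426). Ribosome-poor cells were 10.6% of these cells and 33.9% of the others, and the ratios lay nearer to 1 within each kind. Lgmn had 0.694 (0.382 to 1.26) among ribosome-rich and 0.704 (0.394 to 1.19) among ribosome-poor PPARg-negative cells, intervals that include 1. Grn had 0.476 and 0.406, and the listed sum 0.912 (0.879 to 0.946) and 0.894 (0.823 to 0.969). In the PPARg-low library, ribosome-poor cells were 37.9% of Ccr7 or Satb1 cells and 59.9% of the others. Its listed sum had 0.874 (0.786 to 0.968) among ribosome-rich and 0.994 (0.871 to 1.13) among ribosome-poor cells, where the interval includes 1.

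Other lysosome genes, from a list of 86 that are not members, were also called higher more often than lower. Of 73 that were measured, 31 (42.5%) were called higher and 4 (5.48%) lower in all cells, where 24.4% and 4.42% of all genes were; 18 and 4 were in ribosome-rich cells, where 17.6% and 3.69% of all genes were, and 4 and 4 (5.48% each) in ribosome-poor cells, where 5.62% and 4.82% of all genes were, so that in the ribosome-poor kind the list was at the background. Cst7, the cathepsin inhibitor cystatin F, had 1070 UMIs and 369 CPM in PPARg-low cells and 403 UMIs and 68.3 CPM in PPARg-negative cells (5.40, 4.81 to 6.07), and was called higher in ribosome-poor cells too (2.81). Ratios between 2.18 and 3.22 were found for Dnase2a, a DNase (3.22), Laptm4b (2.85), the mannosidase Man2b1 (2.43), the ganglioside activator Gm2a (2.34), and for Gnptg (2.20) and Nagpa (2.18), which make the mannose 6-phosphate tag of lysosomal enzymes. The 2 receptors of that tag went opposite ways. M6pr, the smaller receptor, had 941 UMIs and 324 CPM in PPARg-low cells and 810 UMIs and 137 CPM in PPARg-negative cells (2.36, 2.15 to 2.60), while Igf2r, the larger one, had 88 UMIs and 30.3 CPM in PPARg-low cells and 488 UMIs and 82.8 CPM in PPARg-negative cells (0.366, 0.289 to 0.461). Igf2r was called lower in either kind of cell, ribosome-rich (0.369) or ribosome-poor (0.394). Ctsw, a cathepsin of cytotoxic lymphocytes, was also lower (0.324, 0.217 to 0.469), as were Ncoa7 (0.515), whose product binds the pump, and Acp5 (0.599), an acid phosphatase. Tcirg1 (1.95, 1.37 to 2.76) and the TFEB relative Tfe3 (72 and 81 UMIs; 1.81, 1.30 to 2.51) were called higher, and Mitf, another relative, had 0 and 10 UMIs and was not measured.

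Several called genes overlap a gene on the other strand in the annotation, and the handling of strand in the counting is not given in the sources used here, so reads of the partner cannot be told apart from theirs. These were Ctsb with Fdft1, Ctsz with Nelfcd, Ctsa with Neurl2 and Pltp, Grn with Fam171a2, Atp6v1g2 with Nfkbil1, Atp6v0a2 with 4930404A12Rik and Ctsc with Gm26522. Glb1 overlaps Tmppe on its own strand.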

How the data were processed

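The authors deposited 1 matrix of UMI counts a library, with genes as rows and barcodes as columns, without normalization. Per the submitters' processing notes, Cell Ranger 2.1.0 and mm10 were used; which annotation, strand setting and cell calling was not given in the sources used here. Files of the PPARg-low group are tagged pos; its label is followed, and the conflict could not be settled. Each group was 1 library of pooled animals, so nothing was tested, cells were not used as replicates, and intervals cover counting error only.

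Of 1992 PPARg-low and 2902 PPARg-negative barcodes, 373 and 269 with over 10% mitochondrial UMIs were left out; all kept cells had 200 or more genes. Scrublet (scanpy 1.11.5) marked 11 (0.679%) and 8 (0.304%) cells as doublets, which were kept, so undetected doublets remain possible. UMIs were summed over cells and given as CPM with exact Poisson intervals; ratios had exact conditional binomial 95% intervals, and a gene at 0 in a library entered at a floor of 3 counts. Calls needed a ratio of 1.5. Ribosome-poor cells had under 20% of UMIs in ribosomal protein genes. Shares were taken after thinning to 750 UMIs, which left out 238 and 239 shallower cells, with exact binomial intervals.

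Full values are given for members called higher or lower and for the most abundant uncalled member of each role; of the other lysosome genes, Tcirg1, Tfe3, Mitf and up to 8 called in each direction were named. Psap, Lipa, Glb1, Ctsd, Ctsl and Atp6v1g1, and the genes named within gates and shares, were chosen after their values were seen. Members and lists were chosen with earlier results of these data known. Coordinates are from GENCODE M21 (mm10), which held 28339 gene identifiers; promoters are from RefSeq (GRCm38.p6). Alternatives covered cell filters, doublets, scaling (edgeR 4.0.16 for TMM factors), weighting and thresholds. Scripts ran in R 4.3.3 and in Python 3.11.15 with pandas 2.3.3, matplotlib 3.10.9, scipy 1.17.1 and numpy 2.4.6; the ratio script was tested on simulated counts.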

Additional observations from a re-analysis of the deposited data

Results flagged for a closer look

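Opposite calls in the 2 kinds of cells were found for 2 members, higher in ribosome-rich and lower in ribosome-poor PPARg-low cells. Other members, Grn and Ctsd among them, had PPARg-low over PPARg-negative ratios on opposite sides of 1 without opposite calls. The difference between the kinds was not tested. For Atp6v0d2, the isoform of the V0 d subunit, the ratio was 4.91 (36 PPARg-low and 22 PPARg-negative UMIs) in the ribosome-rich kind and 0.401 (12 and 17 UMIs) in the ribosome-poor kind. For Glb1, beta-galactosidase, it was 1.58 where ribosomal transcripts were rich and 0.395 where they were poor.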

How the results depend on the processing

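Over 788 recomputed values, 520 kept their direction and size, 262 moved and 6 reversed. Of the 19 members called higher, 15 kept their direction in every setting, and Ctsh, Ctsz and Atp6v1g3 stayed past a ratio of 1.5 in all of them. The main counts were 19 members higher and 0 lower. Members called higher were 12 in the ribosome-rich kind alone, 2 in the ribosome-poor kind alone, 6 with both kinds weighted equally, where 15.4% of all genes were and the members were at that background, and 10 at a ratio of 2, where 11% were. Members called lower, with the percent of all genes called lower in brackets, were 1 with a mitochondrial share of at most 5% (3.65%). They were 3 with scaling to the median of all genes (8.77%) and 3 with TMM factors (9.54%). They were 2 with scaling by UMIs outside ribosomal and mitochondrial genes (8.10%) and 2 with cells weighted equally (6.93%). They were 1 in the ribosome-rich kind (3.69%), 3 in the ribosome-poor kind (4.82%) and 3 with both kinds weighted equally (7.99%). Equal weights give no interval, so those calls rest on size. Other lysosome genes called higher were 18 with a mitochondrial share of at most 5%, where 20.1% of all genes were. They were 18 in the ribosome-rich kind (17.6% of all genes) and 4 in the ribosome-poor kind (5.62%), against 31. The median log2 ratio of V-ATPase genes (0.48) was 0.19 with median scaling, 0.16 with TMM, 0.024 in ribosome-poor cells and 0.16 with kinds weighted equally. For listed genes (0.74) it was 0.45 with median scaling, 0.42 with TMM, 0.48 without ribosomal and mitochondrial UMIs, 0.47 in ribosome-rich cells, 0.042 in the ribosome-poor kind and 0.24 with kinds weighted equally. The 6 values counted as reversed were mostly ratios that fell to the other side of 1 in ribosome-poor cells. With intervals that include 1, these were 0.988 (0.864 to 1.13) for the activator sum and 0.998 (0.790 to 1.27) for Atp6ap1. So were 0.901 (0.600 to 1.37) for Atp6v0a2 and 0.765 (0.532 to 1.10) for Grn. Of the ratios counted as reversed, only that of Atp6v0d2, 0.401 (0.175 to 0.891), had an interval below 1. Grn was also 0.909 with kinds weighted equally, without an interval. Outside these 6, members not called in all cells also crossed 1, with intervals below 1 in ribosome-poor cells. They were Ctsd, at 0.687 (0.585 to 0.808), and Glb1, at 0.395 (0.278 to 0.556). The hydrolase sum likewise went from 1.05 in all cells to 0.555 (0.457 to 0.675). The cause of these changes was not tested. Depth limits Atp6v0a1, Atp6v1g2, Atp6v1g3, Ctsl and Tfeb, whose intervals are wide. No paired analysis was possible because each group is 1 library and the labels give no replicate numbers.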
